A study of Mus musculus with 6 samples.

Results

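Granulosa cells of wild type and ERK1/2 conditional knockout mice were compared after equine chorionic gonadotropin (eCG) and before any human chorionic gonadotropin (hCG). The comparison rests on 2 of the 6 arrays of the series, 1 for each genotype, and is given throughout as the log2 intensity of the knockout array minus that of the wild type array. A gene was tested when the brighter of the 2 arrays was at an intensity of 64 or more, which kept 11346 of 18194 measured genes. It was called higher or lower when the arrays differed at least 2-fold. With 1 array a side there are no replicates, so no value below has an error or a p-value, and a difference between the arrays cannot be told apart from a difference between the animals or dissections behind them.

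All mice were aged 23 days. Each had been given 5 IU of eCG 48 h before its cells were collected, a hormone that stands in for follicle-stimulating hormone and grows follicles to the preovulatory stage. The knockout is labelled ERK1 knockout and ERK2 fl/fl;Cyp19CRE: the former is missing in every cell, and the latter is removed where Cre is made under the promoter of the aromatase gene, which is active in granulosa cells of growing follicles. The other group is labelled only as wild type, and the labels do not say how many mice gave the cells of an array. The remaining 4 arrays hold both genotypes at 2.5 h and 4 h after 5 IU of hCG, and they share no array with the comparison before hCG.

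ERK1 and ERK2 are the last kinases of the RAS, RAF and MEK cascade. Active ERK phosphorylates transcription factors such as those that sit with serum response factor on immediate early genes, and it induces its own inhibitors, the dual specificity phosphatases and Sprouty proteins. In granulosa cells the cascade is best known for what follows the ovulatory surge, when it carries the signal of luteinizing hormone through EGF-like ligands to cumulus expansion, ovulation and luteinization. Before that surge, follicle-stimulating hormone and growth factors keep a lower level of signalling through the same kinases, while the granulosa cells hold the oocyte in meiotic arrest and make oestradiol.

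Before hCG, 92 genes were higher in the knockout, which is 0.811% of the genes tested, and 103 were lower, which is 0.908%. The median over all tested genes was -0.03, with a 5th percentile of -0.50 and a 95th percentile of 0.53. Among the genes called lower were immediate early genes (Egr1, Egr2, Fos, Nab2), the phosphatase gene Dusp6, steroid and sterol genes (Star, Cyp11a1, Hsd17b7, Cyp51), and Sfrp4, Cemip, Pappa and Ptgfr. Among those called higher were Tnfsf11, Nxf3, B4galt6 and Krt7 and 12 oocyte markers. At the threshold, Gm5065 (45 in wild type, 90 in knockout) lay just inside on the higher side and Pla2g4c (972 and 1941) just outside. On the lower side Cpxm1 (522 and 261) lay just inside and Mapkapk3 (453 and 227) just outside.

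**Figure D1:**
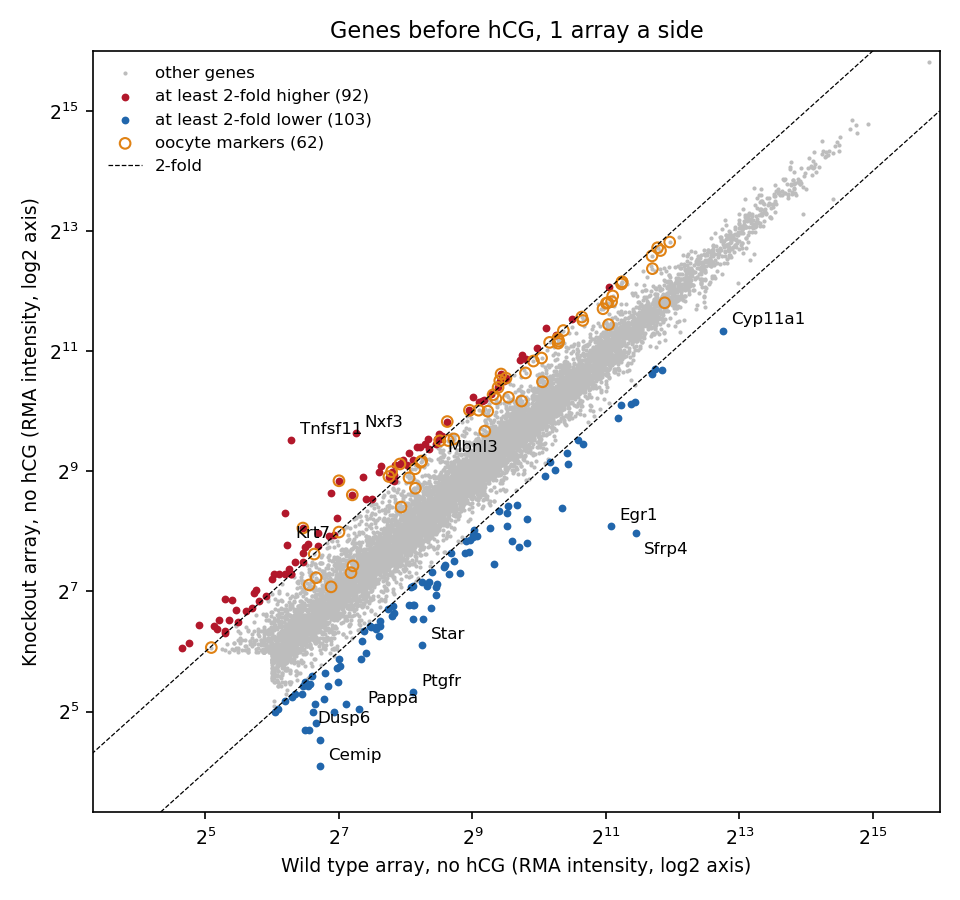
RMA intensity of each tested gene on the wild type array (x axis) and the knockout array (y axis) before hCG, both on log2 axes, 1 point a gene. Red points are the 92 genes at least 2-fold higher and blue points the 103 lower in knockout, and orange rings are the 62 tested oocyte markers, which run as a band along the upper 2-fold line.

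The genes that define preovulatory granulosa cells were at close to the same level on both arrays. Of 28 such genes, all passed the floor of 64, 0 were called higher and 1 lower, and their median was -0.08. Fshr, the receptor of follicle-stimulating hormone, was at 4454 in wild type and 5345 in knockout. Inha, Inhba and Inhbb, the subunits of inhibin and activin, were at 31030, 27756 and 21559 in wild type and at 28064, 25350 and 20115 in knockout. Foxl2, which keeps granulosa identity, was at 4262 and 3890, and the gap junction gene Gja1 at 23379 and 24231. The labelled cell type was therefore present on both arrays by its defining markers. The exception was Nppc, the natriuretic peptide by which mural granulosa cells hold the oocyte in meiotic arrest, at 539 in wild type and 242 in knockout (-1.16). Its receptor gene Npr2 was at 3856 and 3862. Kitl, a ligand for the oocyte, was at 2702 and 1846 (-0.55), short of 2-fold, and another of its probe sets gave 0.16.

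Markers of most other cell types differed little in summed intensity. The summed intensity of the 8 measured theca markers was 14185 in wild type and 14798 in knockout. For 14 measured macrophage and leukocyte markers it was 1746 and 1775. It was 11708 and 11089 for 8 stromal fibroblast markers, and 1168 and 1048 for 12 endothelial markers. Of these markers 6, 10, 7 and 6 were tested, and in each list 0 genes were called. The endothelial list had the lowest median of them (-0.38), with 5 of 6 tested genes below wild type, and stromal fibroblast markers had a median of -0.26. Cdh5, the cadherin of endothelial junctions, was at 111 and 67. Pecam1, Tek and Tie1, defining members of the endothelial list, did not reach 64 on either array before hCG. Among 6 smooth muscle markers Pdgfrb was called, at 213 and 105, and among 4 tested lymphocyte and neutrophil markers Ms4a1, at 44 and 103. Markers of the ovarian surface epithelium had a median of 0.62, and are described with Krt7 below. In bulk RNA, fewer cells of a type and less RNA per cell cannot be told apart, and the part of other cell types in the differences was not tested. Gapdh, whose 3' over 5' probe set ratio tracks RNA integrity, gave 4.79 on the wild type and 5.21 on the knockout array, the latter the highest of the 6 arrays. The part of RNA integrity was not tested.

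**Figure D2:**
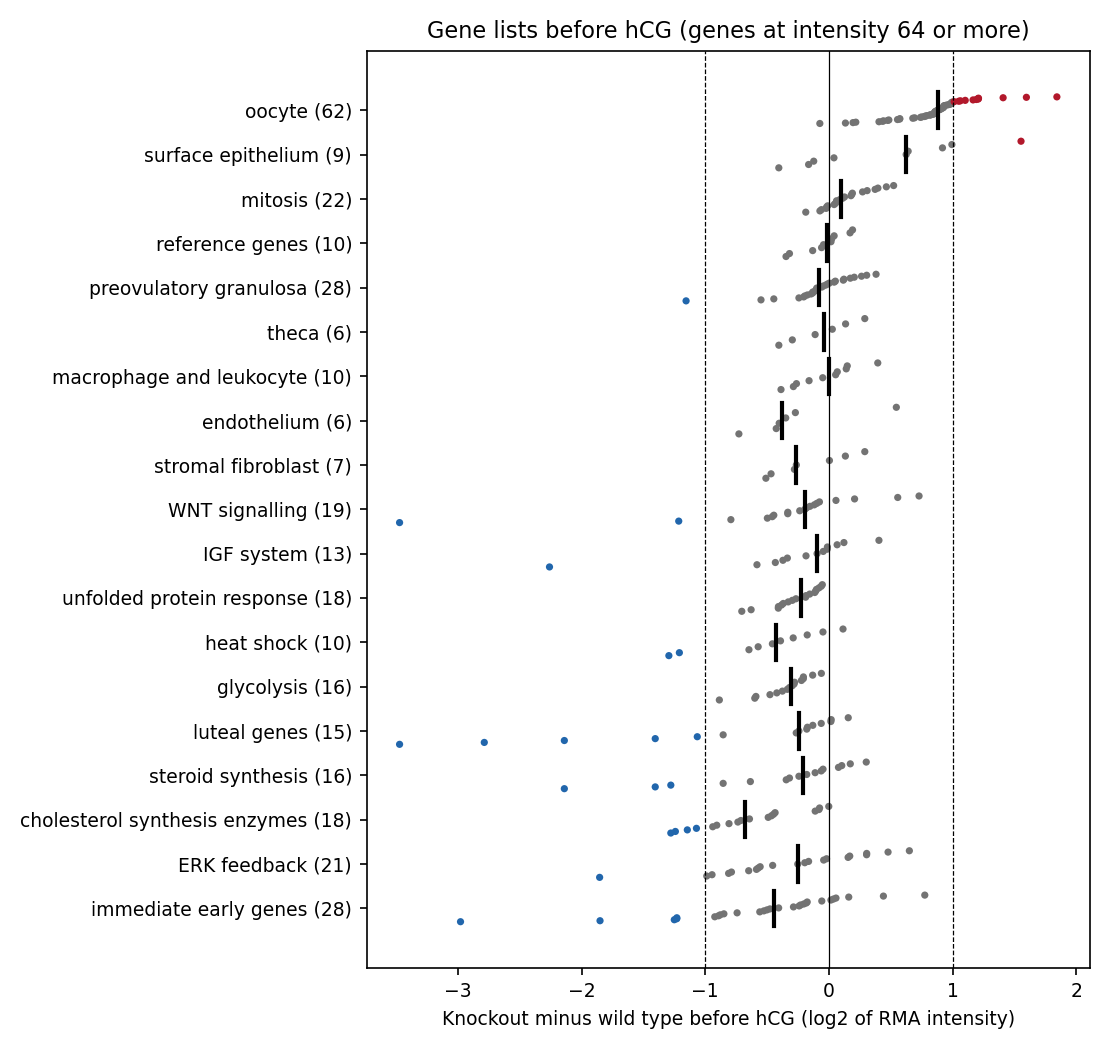
Knockout minus wild type before hCG (x axis, log2) for the tested genes of 19 lists (y axis, number tested in parentheses), 1 point a gene, with the list median as a black bar and the 2-fold limits dashed. Oocyte markers sit to the right of 0 with a median of 0.88, preovulatory granulosa genes around 0, and immediate early genes and cholesterol synthesis enzymes to the left with medians of -0.44 and -0.68.

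Immediate early genes are transcribed within minutes of a signal without new protein, and several are direct outputs of ERK. Of 28 tested, 5 were lower (17.9%, against 0.908% of all genes) and 0 higher, 22 lay below wild type, and the median was -0.44. Some members, Egr2, Ier5, Junb and Maff, passed the floor only through the wild type array, and with both arrays required to reach 64 the median was -0.26.

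Egr1, a zinc finger factor that is a standard readout of ERK activity, was at 2152 in wild type and 273 in knockout before hCG, 7.88-fold lower. After hCG it was at 9767 and 5596 in wild type at 2.5 h and 4 h, and at 259 and 234 in knockout. All 3 knockout arrays were thus low and lay below all 3 wild type arrays. Egr2, its close relative, was at 101 in wild type and 28 in knockout, below the floor, and after hCG its wild type arrays were at 1639 and 609 against 39 and 45 for the knockout. Nab2, the corepressor that EGR factors induce, was at 319 and 136 before hCG, and later at 1034 and 639 in wild type against 195 and 165 in knockout. Fos, a subunit of AP-1, was at 2660 and 1118 (-1.25), and its knockout arrays stayed between 1118 and 1293.

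Nr4a1, an orphan nuclear receptor of the same list, was different. It was at 812 in wild type and 346 in knockout before hCG (-1.23), but at 6344 and 7241 at 2.5 h and at 2192 and 7336 at 4 h, so the genotypes were in the opposite order at 4 h. Ier2, Ier5, Nr4a2 and Ier3 were between -0.92 and -0.85, short of the call, and another probe set of Nr4a2 gave 0.20. On the other side, Klf2 was at 235 and 402 (0.77) and Klf4 at 129 and 175 (0.44), and Jun, the partner of Fos, was at 400 and 416 (0.06).

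Because most of these genes lay on the same side before hCG, their start regions were searched for the letters of known sites. The windows run from 250 bases before to 50 bases after RefSeq gene starts on mouse build GRCm38.p6. Both strands were read, and windows of a gene with several starts can overlap. Starts on 1 chromosome were left out, and some genes, Egr1 among them, had no window and were not searched. The CArG box is the site of serum response factor. It was found in 6 of 31 windows of the tested immediate early genes (19.4%), in Egr2, Srf and Zfp36, and in 1.33% of the 11789 windows of all tested genes. Overlapping windows of Egr2 hold the same match, so 1 site was counted more than once. By gene, the box was in 3 of 22 immediate early genes with a window and in 149 of 9221 tested genes. The Egr2 start is shown because it is the called gene of this list with such a match, with the CArG box in capitals, 72 bases before the start, at chr10:67537619-67537918 on the plus strand:

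Egr2: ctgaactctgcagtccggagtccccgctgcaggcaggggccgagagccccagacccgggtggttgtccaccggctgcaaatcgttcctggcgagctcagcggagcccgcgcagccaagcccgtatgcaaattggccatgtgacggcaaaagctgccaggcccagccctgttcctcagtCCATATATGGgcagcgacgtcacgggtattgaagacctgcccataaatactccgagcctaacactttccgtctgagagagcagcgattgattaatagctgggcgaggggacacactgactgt

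Of the other motifs searched, TGACG, the core of the cyclic AMP response element, was in 64.5% of the immediate early windows and 30.7% of those of all tested genes. The full element TGACGTCA, which contains it, was in 6.45% and 3.05%. GCGNGGGCG, the site of EGR factors, was in 32.3% and 10.7%. Its letters can overlap GGGCGG, the GC box, which was in 71.0% and 62.9%. CCGGAAGT, an ETS site, was in 0% of the immediate early windows, 0% of those of the higher genes and 7.87% of all. These are matches of letters, and binding was not measured.

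Genes that ERK induces to limit itself, listed together with ETS factors and other targets, were less marked as a group. Of 21 tested, 1 was lower (4.76%, against 0.908% of all genes) and 0 higher, 15 lay below wild type, and the median was -0.25. By role, the median was -0.16 for 9 MAP kinase phosphatases and -0.58 for 6 receptor signalling inhibitors. It was -0.22 for 6 ETS factors and other targets. Dusp6, the phosphatase that acts on ERK itself, was at 94 in wild type and 26 in knockout, 3.62-fold lower, with the knockout value under the floor. After hCG its wild type arrays were at 404 and 872 and its knockout arrays at 186 and 99. The ETS factor gene Ets1 (121 and 61) and the inhibitor genes Spred2 (441 and 229) and Spry2 (179 and 102) were below wild type. Their differences were -0.99, -0.95 and -0.81. For Spred2 the other probe sets over the floor did not all point the same way, and the least different gave 0.01. Members of the same families lay on the other side, with Spry4 at 130 and 181 (0.48) and Dusp14 at 174 and 273 (0.65). The whole list was further from 0 in the pairs after hCG, with medians of -0.73 at 2.5 h and -0.69 at 4 h.

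Steroid genes were lower at some steps of progesterone synthesis and close to wild type at others. Star carries cholesterol into mitochondria, the regulated step of steroid synthesis. It was at 304 in wild type and 69 in knockout before hCG, 4.41-fold lower, and the least different of its 3 probe sets over the floor gave -1.95. After hCG its wild type arrays were at 14678 and 16259 and its knockout arrays at 635 and 619, so knockout was low at all 3 times. Cyp11a1, which cleaves the cholesterol side chain, was at 6878 and 2598 (-1.40) before hCG. Unlike Star, it was near wild type later, at 11901 and 9524 at 2.5 h and 13351 and 12909 at 4 h. Hsd17b7, which serves both steroid and cholesterol synthesis, was at 2756 and 1136 (-1.28). Scarb1, the receptor for high density lipoprotein, was at 8106 and 4480 (-0.86). Hsd3b1 (23119 and 22135), Hsd17b1 (13111 and 12681) and the theca enzyme Cyp17a1 (1994 and 1845) were at -0.06, -0.05 and -0.11. Of 16 steroid genes in all, 3 were lower (18.8%, against 0.908% of all genes) and 0 higher, with a median of -0.21.

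Of the 18 enzymes of cholesterol synthesis tested, 4 were called lower (22.2%, against 0.908% of all genes) and 0 higher. All 18 lay below wild type, and the median was -0.68. Fdps, which makes farnesyl pyrophosphate, was at 473 and 200 (-1.24). Mvd, which acts earlier in the pathway, was at 188 and 85 (-1.15), with another probe set at -0.53. Cyp51, which removes a methyl group from lanosterol, was at 517 and 246 (-1.07). Dhcr7 and Sqle were at -0.94 and -0.91. Fdft1 (2602 and 2599) and Hmgcs1 (3391 and 3217) were nearly equal, so the enzymes differed unevenly. Among 6 genes of sterol sensing and uptake, 0 were called and the median was -0.26. In the pairs after hCG, 15 of the 18 enzymes lay below wild type at 2.5 h (median -0.54) and 9 at 4 h (median 0.01). At 4 h Cyp51 was at 2655 in wild type and 965 in knockout, while Fdft1 was at 1826 and 4089.

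Genes linked to luteal cells were lower in part. Of 15 tested, 5 were lower (33.3%, against 0.908% of all genes) and 0 higher, with a median of -0.24. Star and Cyp11a1 are among the 5 and also belong to the steroid list. Sfrp4, a secreted binder of WNT ligands that marks luteal cells, gave the largest difference of all tested genes on the lower side, at 2784 in wild type and 251 in knockout, 11.1-fold lower. It was at 13712 and 21796 in wild type and at 2141 and 3532 in knockout after hCG. It was higher after hCG than before on the arrays of both genotypes, and knockout was below wild type at each time.

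Ptgfr, the receptor by which prostaglandin F2 alpha ends the life of the corpus luteum, was at 276 in wild type and 40 in knockout before hCG. At 2.5 h it was at 1872 and 5126, and at 4 h at 675 and 2394. Knockout was thus lowest before hCG and above wild type after it. The 4 probe sets of Ptgfr over the floor were all lower before hCG, the least by -0.50. Timp1, an inhibitor of matrix proteases, was at 479 and 229 (-1.06), with 5095 and 401 at 4 h. Among the ligands and receptors of WNT signalling, 2 of 19 were lower (10.5%, against 0.908% of all genes), Sfrp4 and the receptor gene Fzd7 (615 and 265). Axin2, a common target of the pathway, was at 358 and 593 (0.73).

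Several secreted proteins and receptors completed the lower end. Pappa, a protease that frees insulin-like growth factor from its binding proteins, was at 158 and 33, and its second probe set over the floor gave -1.84. It was at 775 and 1179 at 2.5 h and 1279 and 1508 at 4 h, so the order of the genotypes was reversed after hCG, short of 2-fold. These differences were 0.61 and 0.24, where the medians of all tested genes were 0.14 and 0.20. Pappa was the only gene called among 13 tested of the IGF system, in which Igf1 (2565 and 2789) and Igf1r (2968 and 2942) were near wild type. Bmper, a binder of bone morphogenetic proteins, was at 902 and 224. Aplnr, the apelin receptor, was at 137 and 35, and Cemip, which takes part in hyaluronan breakdown, at 105 and 17. Averaged over all its probe sets, 2 of which stayed at 28 or less on every array, Cemip differed by -0.98. The same mean gave -1.29 for Aplnr, -1.31 for Pappa, -1.37 for Ptgfr and -1.38 for Egr2, smaller than by their brightest probe sets.

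The other genes at this end were of mixed kinds. Fgd5, an activator of the GTPase CDC42, was at 832 in wild type and 214 in knockout. Cst12, of the cystatin family, was at 1297 and 335, and Nupr1, a stress-induced nuclear protein, at 637 and 175. Bhmt, which remethylates homocysteine, was at 121 and 32, and Pamr1 at 105 and 23. In all, the dimmer array was under the floor for 31 of the 103 lower genes, and for these the fold depends on the background. Of 34 lower genes with a second probe set over the floor, 21 had it at least 2-fold lower too, and in 33 all probe sets over the floor pointed the same way. Agreement was lower among the 92 higher genes: of 19 with a second probe set over the floor, 8 had it at least 2-fold higher too and in 15 all pointed the same way, and 19 of the 92 had the dimmer array under the floor.

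Genes of glycolysis and of the unfolded protein response lay to 1 side by small amounts. All 16 tested glycolysis genes were below wild type with 0 called and a median of -0.31, and Ldha, which turns pyruvate into lactate, was at 8476 and 6327. All 18 tested genes of the unfolded protein response were below wild type too, again with 0 called (median -0.23), and Xbp1, its transcription factor, was at 6022 and 4536. Over all tested genes the median was -0.03, and the 25th percentile was -0.19. Of 10 heat shock genes, 9 lay below wild type, and Hspa1b (2325 and 948) and Hspa1a (222 and 96) were called lower. Both are nearly identical HSP70 genes, which their probe sets may not separate. Of 9 hypoxia response genes, 3 lay above wild type, and Adm, adrenomedullin, was called lower, at 197 and 86. Mitosis genes had a median of 0.10 with 0 of 22 called, and 10 reference genes a median of -0.01.

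Many of the ovulatory genes for which ERK is best known were too dim to compare before hCG. Of 31 measured, 16 passed the floor, and Ereg, Btc, Ptgs2, Has2, Tnfaip6 and Pgr were among those that did not. Of the 16, Cemip was the only gene called. Vcan, a proteoglycan of the cumulus matrix, was at 5151 and 6425, and Runx1 at 256 and 223, with another probe set at 0.25.

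At the higher end, Tnfsf11 (RANKL, the cytokine known for osteoclast formation) stood apart. It was at 78 in wild type and 735 in knockout before hCG, 9.42-fold higher, at 219 and 1874 at 2.5 h, and at 59 and 2034 at 4 h. All 3 knockout arrays lay above all 3 wild type arrays. Its second probe set, under the floor, was at 30 and 46 before hCG, and the mean of both gave 1.93 in place of 3.24. Nxf3, of the family of RNA export factors, was at 153 and 797, then at 185 and 857 and at 320 and 849. B4galt6, which makes lactosylceramide, was at 164 and 482, then at 99 and 808 and at 148 and 1030, and 3 of its probe sets over the floor were all higher, the least by 1.29. Gng13, a G protein gamma subunit, was at 39 and 117, with its second probe set, under the floor, at 62 and 50. Among other TNF superfamily genes, Tnfrsf12a, the receptor of TWEAK, was lower, at 734 and 272, and Tnfrsf1b was at 355 and 342.

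Krt7, a keratin of the ovarian surface epithelium and of other simple epithelia, was at 75 in wild type and 220 in knockout before hCG, and at 99 and 293 and 137 and 335 later. Other surface epithelium markers were also above wild type, with Cdh1 (E-cadherin) at 113 and 225, Krt19 at 171 and 323, Msln (mesothelin) at 163 and 254 and Upk1b at 194 and 299. Upk3b (1061 and 801), Krt18 (139 and 124) and Epcam (122 and 112, with another probe set at 0.61) were not. Of 9 tested markers, 6 were thus above wild type and 1 was called. The summed intensity of all 10 measured markers was 2930 and 3269. The median of the tested markers was 0.62 before hCG, 0.66 at 2.5 h and 0.58 at 4 h.

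Other genes among the 15 highest were bright on the knockout array before hCG more than on any other. Gm15666 was at 73 and 317 before hCG and between 63 and 107 on the 4 later arrays. Car3, a carbonic anhydrase, was at 30 and 87 and between 25 and 28 later. Its other 3 probe sets were at 38 or less on all arrays, and averaged over all its probe sets it differed by 0.30. E030024N20Rik was at 42 and 116, 9130409I23Rik at 27 and 71, and Mamld1 at 199 and 545. H3f3b, which encodes histone H3.3, was at 118 and 397 by a probe set that names it alone, and at 301 and 185 at 4 h.

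The oocyte and the granulosa cells around it are joined by gap junctions and are easily collected together. The oocyte markers used here are 83 genes known from oocytes, a few of which, such as Uhrf1, dividing cells also express. Of these, 71 were measured and 62 passed the floor. On the knockout array 61 of the 62 were above wild type, with a median of 0.88, and 12 of them were called higher (19.4%, against 0.811% of all genes). Their 25th and 75th percentiles were 0.76 and 0.99, just short of 2-fold. Without a floor, 93.0% of the 71 measured markers were above wild type, with a median of 0.86. Ddx4, at 34 and 67, passed the floor only through the knockout array. The summed intensity of all 71 measured markers was 68013 in wild type and 119149 in knockout.

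The difference was alike across the roles of the genes. Among 7 zona pellucida and egg surface genes the range was 0.48 to 1.06. Zp3, a structural protein of the zona, was at 2417 and 4551 (0.91), Zp2 at 2196 and 3872 (0.82) and Zp1 at 600 and 1024 (0.77). Of the growth factors by which the oocyte acts on granulosa cells, Gdf9 was at 3500 and 6752 (0.95) and Bmp15 at 215 and 482 (1.16). Among 13 genes of the subcortical maternal complex and the NLRP family the range was 0.55 to 1.60. Nlrp5 (MATER), needed by the early embryo, was at 1316 and 2598 (0.98), and Nlrp4e at 88 and 266 (1.60). The linker histone H1f8 was at 241 and 557, Dppa3 (STELLA) at 680 and 1459, and the meiotic kinases Mos and Wee2 at 634 and 1237 and at 668 and 1347. Khdc1a was 3.59-fold higher, and the F-box gene Fbxw13 was at 147 and 390. Tcl1b3 (3766 and 3578) was the marker not above wild type.

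The oocyte markers were high on the knockout array before hCG against every other array, too. Relative to wild type before hCG, their median was -0.68 and -0.53 in wild type at 2.5 h and 4 h, and -0.32 and -0.53 in knockout. In the pairs after hCG, 55 of 62 were above wild type at 2.5 h (median 0.30, all genes 0.14) and 39 at 4 h (median 0.07, all genes 0.20). The knockout array before hCG thus stood out, and the later arrays of both genotypes were close together.

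**Figure D3:**
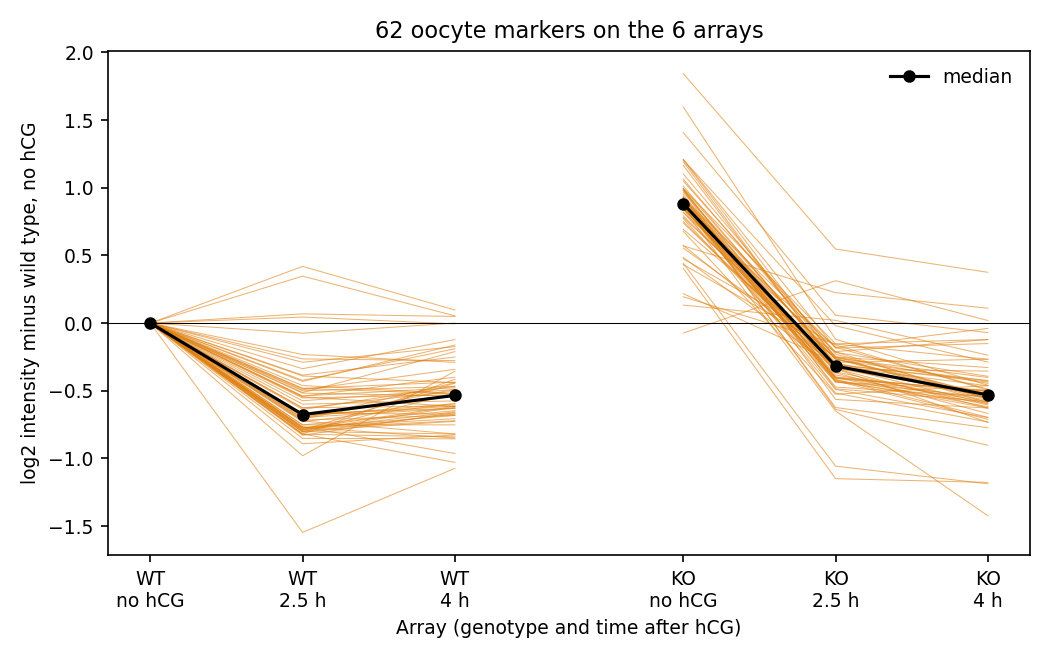
Log2 intensity of 62 oocyte markers on each of the 6 arrays relative to the wild type array before hCG (WT, wild type; KO, knockout; time after hCG), with 1 orange line a gene and genotype and the median in black. The median is 0.88 on the knockout array before hCG and lies between -0.68 and -0.32 on the 4 arrays after hCG.

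Some letters that were not used to choose the oocyte genes were more common in their start regions. CACCTG is an E-box, the kind of site bound by FIGLA, the factor that drives zona genes. It was in 26 of 68 windows of the tested oocyte markers (38.2%) and in 28 of 81 windows of all higher genes (34.6%), against 17.6% of windows of lower genes, 18.2% of all tested genes and 20.2% of all 32851 windows. TAATTG, a site of the homeodomain factor NOBOX, was in 11.8% of windows of oocyte markers and 12.3% of higher genes, against 3.30% of lower genes and 4.79% of all tested genes. GGGCGG went the other way, in 29.4% of windows of oocyte markers and 28.4% of higher genes, against 61.5% of lower genes. It was in 62.9% of windows of all tested genes but 35.7% of all windows. The sets were not matched for base composition. TCACNCCAC was in 8.82% of windows of oocyte markers and 1.14% of all tested genes. CAAGGTCA, a site of steroidogenic factor 1, was in 0% and 1.12%. Some of the 81 windows belong to oocyte markers, so these sets overlap. Related genes recur among the marker matches: TCACNCCAC was in Bmp15, Btg4, Fbxw14, Fbxw16, Fbxw19 and Fbxw24. CACCTG was in Nlrp9a, Nlrp9b and Nlrp9c, among others. Windows of related genes were counted apart and may not be independent.  The windows of 3 markers are given, with the match in capitals as it reads on the printed strand, where CAGGTG is CACCTG on the opposite strand. Zp3 is shown as the zona gene with a match, since Zp1 and Zp2 had no window. Its window is at chr5:135979855-135980154 on the plus strand, with the match 55 bases before the start. H1f8 (chr6:115944681-115944980, plus strand, 66 bases before) and Nlrp9a (chr7:26534773-26535072, plus strand, 81 bases before) are shown as markers called higher:

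Zp3: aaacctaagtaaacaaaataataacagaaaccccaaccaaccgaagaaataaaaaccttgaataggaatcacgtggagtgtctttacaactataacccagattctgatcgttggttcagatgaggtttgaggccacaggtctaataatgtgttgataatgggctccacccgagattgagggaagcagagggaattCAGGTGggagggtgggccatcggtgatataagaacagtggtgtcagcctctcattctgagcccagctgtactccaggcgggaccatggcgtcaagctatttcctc
H1f8: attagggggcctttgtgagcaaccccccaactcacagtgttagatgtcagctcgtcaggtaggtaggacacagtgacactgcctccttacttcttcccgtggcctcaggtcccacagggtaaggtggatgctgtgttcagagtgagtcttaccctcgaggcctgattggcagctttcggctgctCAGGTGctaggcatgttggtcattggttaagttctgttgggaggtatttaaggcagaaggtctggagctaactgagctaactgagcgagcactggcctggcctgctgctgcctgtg
Nlrp9a: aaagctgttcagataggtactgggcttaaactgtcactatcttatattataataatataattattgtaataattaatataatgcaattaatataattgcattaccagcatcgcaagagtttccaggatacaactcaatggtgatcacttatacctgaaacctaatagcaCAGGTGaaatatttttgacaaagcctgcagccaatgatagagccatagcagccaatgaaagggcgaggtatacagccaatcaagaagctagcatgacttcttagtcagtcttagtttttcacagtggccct

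To separate oocyte-type RNA from the rest, each gene was compared with the median profile of the oocyte markers over the 5 arrays other than the knockout array before hCG. A gene was called oocyte-type at a Pearson r of 0.8 or more. The 5 points include the wild type array before hCG, and the correlation is a description only. By this measure 35 of the 92 higher genes (38.0%) and 0 of the 103 lower genes were oocyte-type, against 13.3% of all tested genes and 75.8% of the oocyte markers. Together with the marker list, 39 of the higher genes were of the oocyte kind and 53 were neither.

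Among the oocyte-type genes outside the marker list were Sall4 (546 in wild type, 1143 in knockout), a germ cell transcription factor, Rspo2 (1005 and 2125), an R-spondin known to be secreted by oocytes, and Oas1c (891 and 1873). Another probe set of Rspo2 over the floor gave 0.09. Pramel25 was at 1101 and 2666 and Trim61 at 852 and 1965. These were chosen after their values were seen. The 35 oocyte-type genes had medians of 0.39 and 0.20 in the knockout minus wild type pairs at 2.5 h and 4 h, and 0 of them were at least 2-fold apart there. The other 57 had medians of 0.49 and 0.45, and 15 of them were at least 2-fold higher at each time. The likeness measure used the arrays of these same pairs, in which the oocyte profile was close between genotypes. The contrast thus follows in part from how the genes were split. Some of the 53 are known from germ cells, such as Sycp2l (25 and 67), a synaptonemal complex gene, and Asz1 (122 and 246), which failed the measure of likeness.

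Probe sets that do not name a single gene pointed the same way. Of 2893 such probe sets over the floor, 330 were higher (11.4%) and 16 lower (0.553%). Of 19182 that name 1 gene, 236 were higher (1.23%) and 155 lower (0.808%). As a description of probe sets chosen by their difference before hCG, the 330 had a median intensity of 195 on the knockout array before hCG, 79 on the wild type array before hCG, and between 74 and 91 on the 4 later arrays. By the likeness measure 27 of the 330 (8.18%) were oocyte-type, against 8.64% of all probe sets of this class, so likeness to the oocyte profile was no more common among them than in the class.

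**Figure D4:**
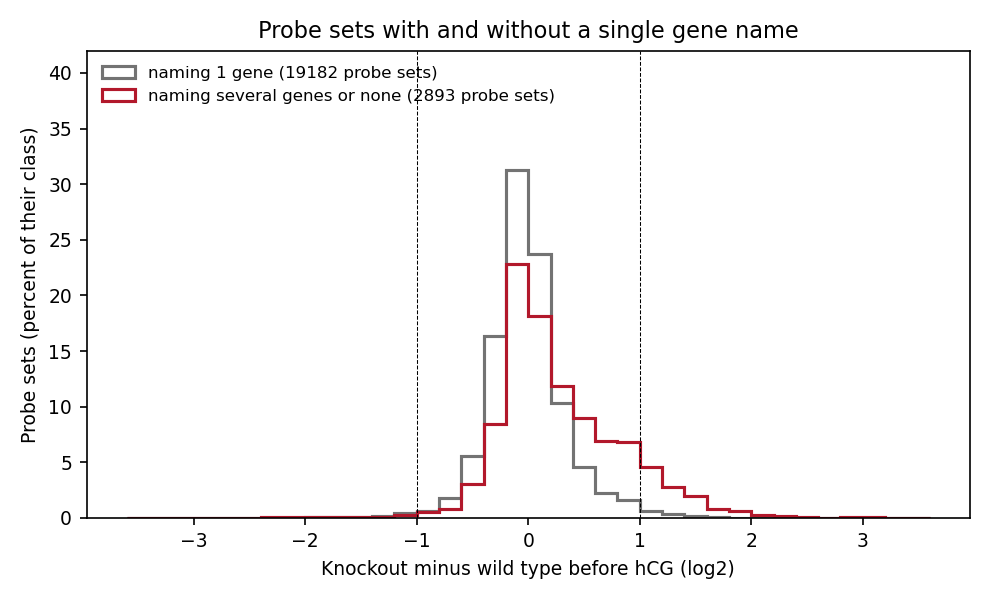
Knockout minus wild type before hCG (x axis, log2) against the percent of probe sets in each step (y axis), for 19182 probe sets naming 1 gene (grey) and 2893 naming several or none (red), all over the floor. The red curve has a shoulder to the right, with 11.4% of it past the upper dashed 2-fold line against 1.23% of the grey curve.

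Differences before hCG were read again in the pairs at 2.5 h and 4 h, which are separate arrays. Of the 103 lower genes, 92 were below wild type at 2.5 h and 84 at 4 h, against 32.6% and 31.0% of all tested genes. At each time 53 of them were at least 2-fold lower, against 3.08% of all tested genes at 2.5 h and 4.15% at 4 h, and 46 were so at both times, against 1.82%. Of the 92 higher genes, 81 and 71 were above wild type, against 66.6% and 68.3% of all genes. At each time 15 were at least 2-fold higher, against 1.48% of all tested genes at 2.5 h and 4.99% at 4 h, and 12 were so at both times, against 0.908%. The lower genes thus kept their difference more often than the higher ones, which is a comparison of counts without a test.

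The 46 persistent lower genes begin with Sfrp4, Egr1, Cemip and Star and include Dusp6, Egr2, Nab2, Hsd17b7, Cyp51, Timp1 and Tnfrsf12a. Several were far higher in wild type after hCG, and are named here after their values were seen. F3, tissue factor, was at 125 in wild type and 53 in knockout before hCG and at 10756 and 216 at 2.5 h. Chst15, a sulfotransferase for chondroitin sulfate, was at 403 and 157, then 7019 and 216. Plau, urokinase, was at 98 and 32, then 623 and 46, and Rnd3 at 81 and 39, then 1041 and 59. Others were not induced in wild type: Cdc42ep3 was at 770 and 229 before hCG and 480 and 152 at 2.5 h, Sparc, a matrix protein, at 2387 and 1095 and then 2768 and 962, and Maf at 423 and 182 and then 439 and 189.

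The 12 persistent higher genes were Tnfsf11, Nxf3, Gng13, B4galt6, Krt7, Svs5, AI467606, Eppin, Mbnl3, Ampd3, Epb41l4a and Plac1. None is in the oocyte marker list. None is oocyte-type either, but this follows largely from the definitions. The likeness measure uses the arrays of the later pairs, so a gene 2-fold apart there could hardly be oocyte-type. Svs5, known from the seminal vesicle, was at 53 and 126 before hCG and at 50 and 757 at 4 h, and Mbnl3, a splicing regulator, at 360 and 791 and then 391 and 2334. The other probe sets of Mbnl3 over the floor gave 1.30 and 0.75 before hCG.

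**Figure D5:**
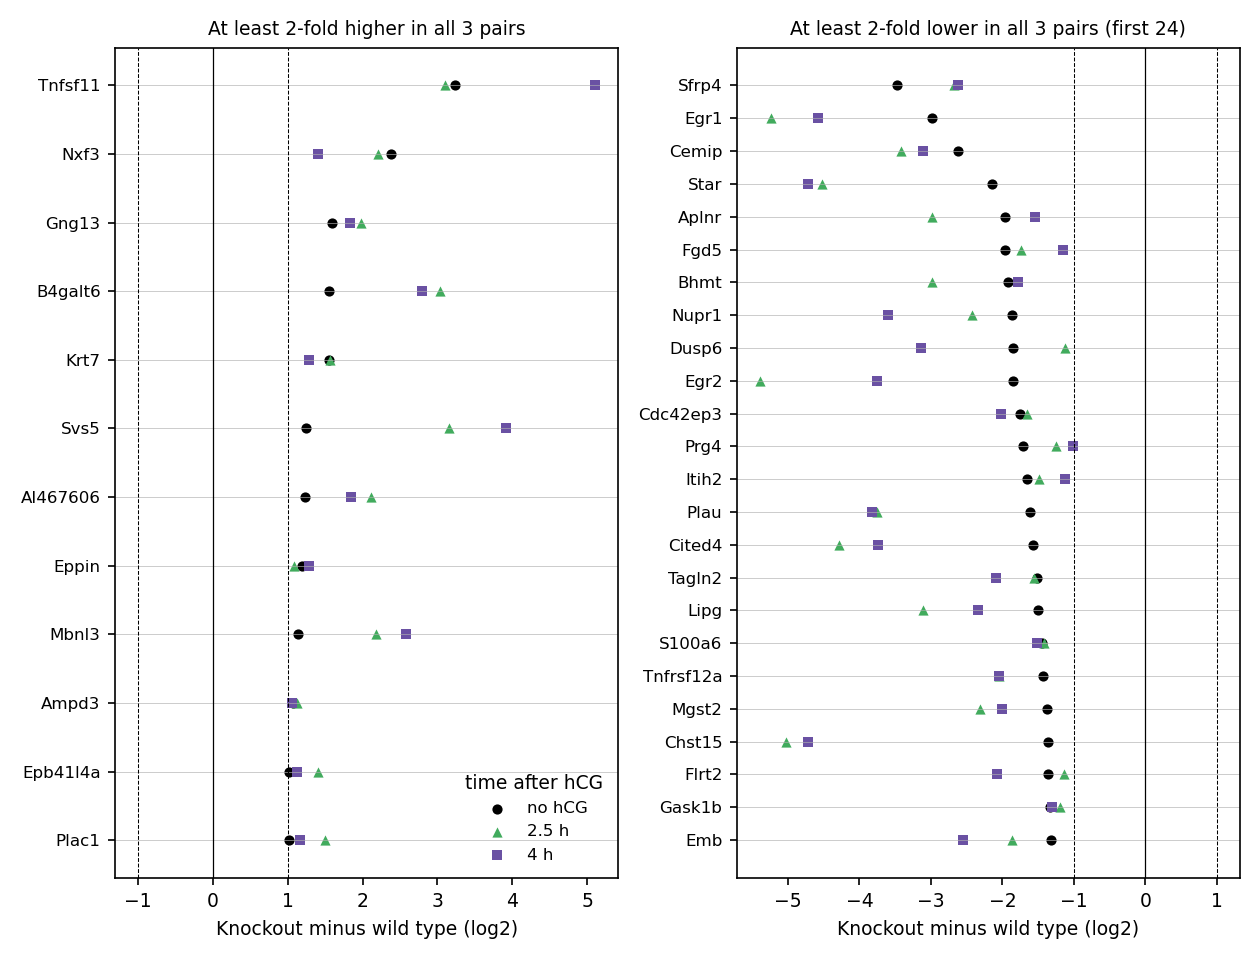
Knockout minus wild type (x axis, log2) before hCG (black circles), at 2.5 h (green triangles) and at 4 h (purple squares) for the 12 genes at least 2-fold higher in all 3 pairs (left) and the first 24 of the 46 lower in all 3 (right). Tnfsf11 goes from 3.24 before hCG to 5.11 at 4 h, and Egr1 from -2.98 to -4.58.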

How the data were processed

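Total RNA of ovarian granulosa cells was measured on 6 Affymetrix arrays. The deposited values are whole-number intensity values on a linear scale, made by the authors with RMA in affy, per the submitters' processing notes, with versions not given in the sources used. The quantile step of RMA hides changes in total RNA. Log2 of each deposited intensity was taken here, with Python 3.11.15, pandas 2.3.3 and numpy 2.4.6. A gene is represented by the probe set naming only it that is brightest by mean log2 of all 6. Of 45101 probe sets, 34958 have 1 gene symbol in the platform annotation, 932 several and 9211 none. The rule of size is at least 2-fold with the brighter array at 64 or more. The medians of the arrays were 54 or 55, and 47.1% to 47.6% of probe sets reached 64. Array number limits the precision.

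The genes named are the 15 highest and 15 lowest past the rule whose probe sets agree in direction, up to 6 of each list, and others where said. Members and 24 lists (528 names, 479 measured, 392 tested) were chosen with earlier results of these data known. Alternatives were other folds, floors, probe set rules, likeness thresholds and normalizations (cyclic loess in limma 3.58.1, R 4.3.3). Those of adding 32 to each intensity were chosen after seeing the data. Sequences are RefSeq's on GRCm38.p6. The targeted genes are not reported here, so the genotype labels rest on the submitters' word.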

Additional observations from a re-analysis of the deposited data

Results flagged for a closer look

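Genes at least 2-fold apart before hCG whose difference had the opposite sign, at least 2-fold, at both later times are listed here. The difference between times was not tested, since each pair has 1 array a side. Il7, the cytokine interleukin 7, differed by 1.26 before hCG (93 in wild type, 222 in knockout), with 1062 and 127 at 4 h. Palm2 differed by 1.20 (64 and 147), with 723 and 257 at 4 h. On the other side, Ptgfr differed by -2.79 before hCG, Hspa1b by -1.29, Tulp2 by -1.18 and St8sia1, a sialyltransferase, by -1.06. Hspa1b was at 567 in wild type and 1827 in knockout at 4 h, and Tulp2 at 24 and 216.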

How the results depend on the processing

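No paired analysis was possible because each genotype and time has 1 array. With a fold of 1.5 in place of 2, 480 genes were higher, 393 lower and 50 oocyte markers higher, and with a fold of 3 these counts were 7, 21 and 2. Adding 32 to every intensity gave 46 higher and 64 lower. With a likeness of 0.9 in place of 0.8, 20 higher genes were oocyte-type. The other 27 counts under alternatives stayed within 1.5 times of the value given, cyclic loess among them, and among the list medians and the genes at the ends only the medians of theca and of macrophage and leukocyte markers, both near 0, changed sign. With cyclic loess, 62.7% of the higher genes were above wild type at 4 h. The share of all genes under cyclic loess was not computed, so this percent has no background beside it. Of 330 values of the 30 genes at the ends, 38 no longer passed the rule, mostly under higher floors. Adding 32 left Sycp2l at 0.80, 9130409I23Rik at 0.80 and Car3 at 0.94, and the mean of all probe sets left Cemip at -0.98, Gng13 at 0.64 and Car3 at 0.30. With a floor of 32 the median of surface epithelium markers was 0.33, and with both arrays at 64 or more that of immediate early genes was -0.26. Signal over background limits genes near 64, and 1 array a side limits all.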
